A study of Mus musculus with 6 samples.

Results

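The mitosis and cytokinesis genes described here are 50 genes of mitotic cyclins and kinases, the spindle, the kinetochore, condensin and cytokinesis. They were chosen by name, with earlier results of these data known, and each matched 1 of the 35976 gene rows of the deposited table. Mitosis is the stage of the cell cycle in which copied chromosomes condense, attach to a spindle of microtubules and are pulled apart, and cytokinesis then splits the cell. The genes for this machinery are transcribed together late in the cycle, by the factors FoxM1 and B-Myb and the complexes they join, and are repressed in cells that do not divide. Heart muscle cells of mice divide before birth, make a last round of DNA synthesis and mitosis soon after it, often without splitting the cell, and then largely stop, while endothelial cells, fibroblasts and blood cells of the heart can still divide.

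The series measured RNA from hearts of mice labelled WT, in 2 groups of 3 libraries. The sgRNA7 hearts received an adeno-associated virus (AAV) that carried an adenine base editor, built from the deaminase TadA8e and the Cas9 named Sauri, with a guide RNA, sgRNA7, transcribed from a U6 promoter. The construct's label lists MYL2, the name of a light chain gene of ventricular muscle, ahead of the editor, without saying whether it is the promoter, and the series describes the editing as specific to the heart. The guide targets the donor splice site of intron 7 of Camk2d, the gene of the main heart form of calcium/calmodulin-dependent protein kinase II. The control hearts were untreated, with no virus, editor or guide, so the virus, the editor and the edit cannot be told apart. The labels give no age, sex, dose, interval after treatment or part of the heart, and do not say that each library came from a separate animal, so a p-value here reflects only how far these libraries spread. Per-library values are always given for replicates 1, 2 and 3 in that order. A numbered heart or control means 1 library, and n counts libraries.

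Total counts were 17265842 to 23097998 in sgRNA7 libraries and 17062412 to 19743748 in control libraries. Levels are in CPM, counts divided by library size, with sizes adjusted by TMM, a method that assumes most genes do not differ. The targeted gene, Camk2d, had 138, 129.8 and 164 CPM in sgRNA7 hearts, against 226, 219.6 and 224 CPM in control hearts (log2 fold change -0.63, SE 0.07, adjusted p 0.000476 in edgeR's quasi-likelihood test; two-sided exact permutation p = 0.1, the smallest that 3 against 3 allows). Control 1 differed from the other 5 libraries in sex-linked RNA, with Xist, the RNA of the inactive X chromosome, at 574 CPM and no count of the Y-linked Ddx3y, while the others had at most 1.1 CPM of Xist and 54.2 to 78.9 CPM of Ddx3y. Controls 1 and 3 held little RNA of the atrium, with the atrial light chain Myl7 at 6.88 and 0.209 CPM, against 332 CPM in control 2 and 371 to 914 CPM in sgRNA7 hearts. All 12 heart muscle markers were detected in every library, led by the myosin heavy chain Myh6 at 31031 to 33630 CPM in sgRNA7 hearts and 36066 to 38098 CPM in control hearts.

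The mitosis and cytokinesis genes were mostly higher in sgRNA7 hearts. In RNA from whole tissue, a change in the number of dividing cells and a change in RNA per cell cannot be told apart. All 50 passed the filter on low counts, with 64 to 2329 reads per gene and library, and 28 rose and 0 fell at an adjusted p under 0.05 in edgeR's test. Of all 14879 tested genes, 4.93% rose and 4.74% fell by the same rule (9.66% in either direction). The fold change was above 0 on the log2 scale for 49 of the 50, with a median of 0.42 (against 0.00 over all tested genes) and a range of -0.06 for Cenpf to 0.65 for Plk1. All 3 sgRNA7 hearts lay above all 3 controls for 38 of the 50 genes, against 14.6% of all tested genes. None of the 50 passed a test for a change above 1.5-fold (glmTreat), which 0.195% of all tested genes passed upwards. In the test against no change, 47 of the 50 had an unadjusted p under 0.05, against 24.4% of all tested genes.

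Summed over the 50 genes, the level was 1308, 1339 and 1406 CPM in sgRNA7 hearts, against 1198, 992 and 982 CPM in control hearts. Every sgRNA7 heart was above every control in this sum, and control 1 stood between controls 2 and 3 and the sgRNA7 hearts. Control 1 was the highest control for 45 of the 50 genes, at a median of 1.22 times the mean of controls 2 and 3. The lowest of all 6 libraries was control 3 for 26 genes and control 2 for 24. sgRNA7 heart 3 was the highest of all 6 for 29 genes, sgRNA7 heart 2 for 14, sgRNA7 heart 1 for 5 and control 1 for 2. All 3 sgRNA7 hearts exceeded controls 2 and 3 for 49 of the 50 genes, and all 3 exceeded control 1 for 38. The shares of all tested genes in these comparisons were not computed, so neither count has a background beside it. Without control 1, 40 of the 50 genes and 413 of all tested genes rose. The median log2 fold change of the 50 was then 0.53.

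**Figure D1:**
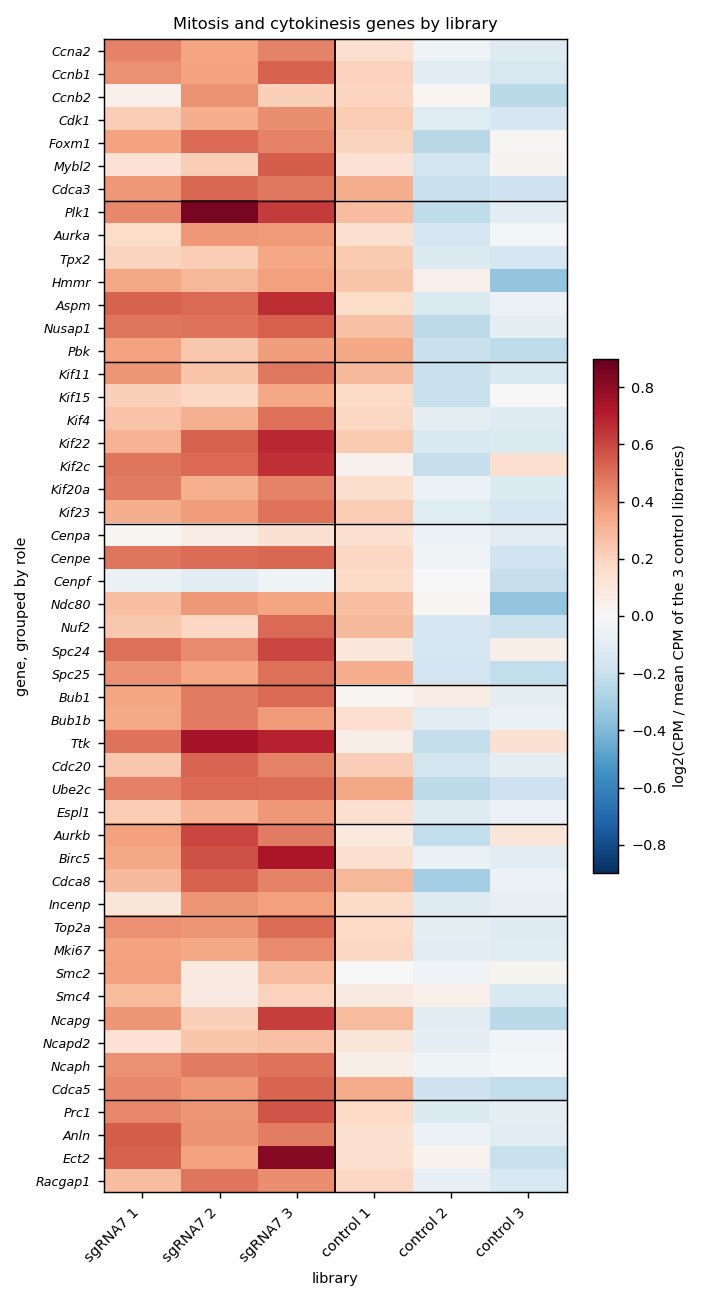
Level of each of the 50 genes (rows, grouped by role between black lines) in each library (columns, sgRNA7 left, control right), as log2 of CPM over the mean CPM of the 3 control libraries. The sgRNA7 columns are red in nearly every row, control 1 is pale red in most, and the sgRNA7 cells of Cenpa and Cenpf are the palest.

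The number of genes called rested on single libraries and on the setting. It was 10 without control 3, 14 without sgRNA7 heart 3, 19 without control 2 and 3 when both control 1 and control 3 were left out. Adding the level of Myl7 to the model left 1 call, and dropping the filter on low counts gave 44. The median log2 fold change stayed between 0.36 and 0.53 in these and all other alternatives that give one. Over all tested genes the count of calls moved too, to 386 without control 3, 743 without sgRNA7 heart 3, 1253 without control 2, 781 without control 1, 82 without controls 1 and 3 and 126 with Myl7, against 1438 with all libraries. The part of atrial RNA in the mitotic values was not tested.

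**Figure D2:**
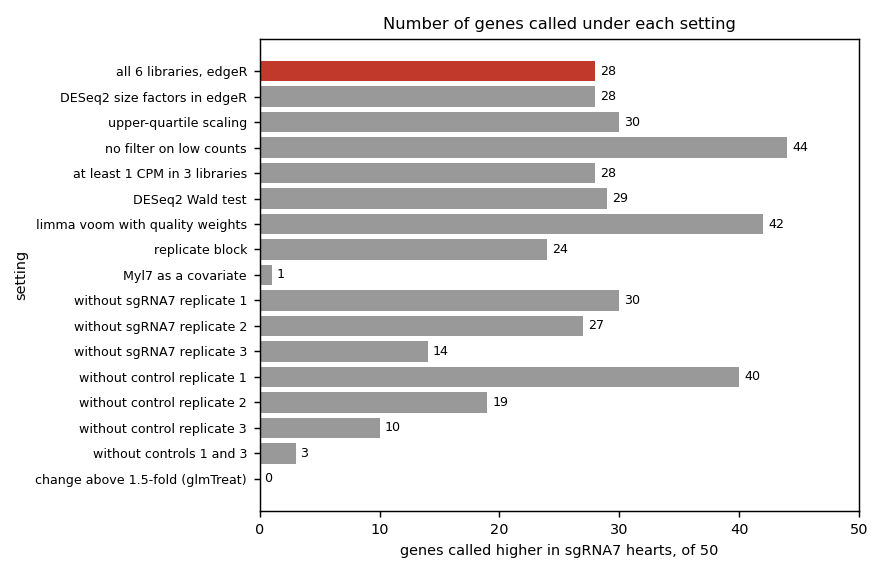
Number of the 50 genes called higher in sgRNA7 hearts (bars, horizontal axis from 0 to 50) with all 6 libraries in edgeR (red, 28) and under each alternative setting (grey). The count runs from 0 for changes above 1.5-fold and 1 with Myl7 as a covariate to 44 with no filter; no gene was called lower in any of them.

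Because these genes are transcribed together, the sequences before their start sites are shown next. Promoters of mitotic genes are known for CCAAT boxes, bound by the factor NF-Y, and for the CHR element (cell cycle genes homology region), bound by the DREAM and B-Myb-MuvB complexes. RefSeq promoters of build GRCm38.p6, from 250 bases before to 50 bases after the start, were at hand for 41 of the 50 genes, 43 promoters in all; Tpx2, Spc24, Smc4, Pbk, Ccna2, Aurkb, Incenp, Foxm1 and Kif20a had no entry. The motifs searched, on both strands, were only CCAAT for the CCAAT box and only TTTGAA for the CHR element, with no variant forms. They can overlap and did so 47 times in the 32851 promoters of the table. The 250 bases before the start are printed 5′ to 3′ on the strand of the gene for the cyclins, their kinase and 3 other well-studied mitotic promoters, and for Cenpf and Cenpa, the pair of genes with the largest p. Capitals mark both motifs.
Cdk1, chr10:69352913-69353162, minus strand: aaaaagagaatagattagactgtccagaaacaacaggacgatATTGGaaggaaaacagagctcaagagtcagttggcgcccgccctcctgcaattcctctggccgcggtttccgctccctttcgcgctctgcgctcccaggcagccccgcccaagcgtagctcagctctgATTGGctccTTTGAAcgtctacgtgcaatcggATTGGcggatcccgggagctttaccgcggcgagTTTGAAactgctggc
Ccnb1, chr13:100786487-100786736, minus strand: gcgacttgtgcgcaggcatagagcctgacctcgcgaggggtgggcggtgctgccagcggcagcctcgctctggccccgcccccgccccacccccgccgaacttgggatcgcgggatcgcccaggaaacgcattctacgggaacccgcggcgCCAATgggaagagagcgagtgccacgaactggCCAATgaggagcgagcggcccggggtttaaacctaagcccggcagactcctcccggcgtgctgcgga
Ccnb2, chr9:70421555-70421804, minus strand: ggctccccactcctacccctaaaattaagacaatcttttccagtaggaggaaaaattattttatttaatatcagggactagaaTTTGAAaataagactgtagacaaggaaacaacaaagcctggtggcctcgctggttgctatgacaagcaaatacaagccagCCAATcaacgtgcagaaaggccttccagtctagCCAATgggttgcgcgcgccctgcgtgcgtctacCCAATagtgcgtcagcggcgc
Top2a, chr11:99024190-99024439, minus strand: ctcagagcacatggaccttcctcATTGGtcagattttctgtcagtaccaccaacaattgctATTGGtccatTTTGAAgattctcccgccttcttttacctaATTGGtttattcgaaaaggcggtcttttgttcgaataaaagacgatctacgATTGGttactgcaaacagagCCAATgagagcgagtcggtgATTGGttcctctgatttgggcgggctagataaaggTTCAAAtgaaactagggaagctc
Cdc20, chr4:118437344-118437593, minus strand: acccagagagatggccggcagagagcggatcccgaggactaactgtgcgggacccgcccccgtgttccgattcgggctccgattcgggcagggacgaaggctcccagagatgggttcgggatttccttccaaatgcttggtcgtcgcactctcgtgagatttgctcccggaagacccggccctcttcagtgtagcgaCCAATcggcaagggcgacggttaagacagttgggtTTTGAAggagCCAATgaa
Plk1, chr7:122159185-122159434, plus strand: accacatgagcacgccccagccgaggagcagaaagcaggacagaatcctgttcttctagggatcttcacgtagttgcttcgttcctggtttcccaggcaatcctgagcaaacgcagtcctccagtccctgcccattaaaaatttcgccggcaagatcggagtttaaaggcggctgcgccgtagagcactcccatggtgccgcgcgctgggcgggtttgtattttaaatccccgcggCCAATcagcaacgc
Cenpf, chr1:189688087-189688336, minus strand: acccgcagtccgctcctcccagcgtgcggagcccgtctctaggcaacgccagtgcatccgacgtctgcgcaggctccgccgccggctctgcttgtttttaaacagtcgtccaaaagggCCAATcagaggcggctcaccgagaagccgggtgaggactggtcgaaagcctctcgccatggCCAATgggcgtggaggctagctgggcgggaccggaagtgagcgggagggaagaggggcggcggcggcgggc
Cenpa, chr5:30666636-30666885, plus strand: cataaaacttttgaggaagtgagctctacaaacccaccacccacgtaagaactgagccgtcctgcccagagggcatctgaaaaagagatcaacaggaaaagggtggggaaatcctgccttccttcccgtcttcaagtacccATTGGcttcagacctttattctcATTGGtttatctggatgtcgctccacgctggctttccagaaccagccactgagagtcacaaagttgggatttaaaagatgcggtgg

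These stretches hold 3 CCAAT and 2 TTTGAA matches for Cdk1, 6 and 2 for Top2a, 3 and 1 for Ccnb2, 2 and 1 for Cdc20, 2 and 0 for Ccnb1 and 1 and 0 for Plk1. Cenpf and Cenpa each hold 2 CCAAT matches and no TTTGAA match in the printed bases, but each has a TTTGAA match just after the start, at base 3 for Cenpf and base 17 for Cenpa. Plk1 has one at base 31, and Ccnb1 has none in the window searched. Over the whole window, 76.7% of the 43 promoters held a CCAAT box, against 37.4% of all promoters of the table, and 51.2% held 2 or more, against 11.7%. TTTGAA was found in 81.4%, against 17.9%, and both motifs in 69.8%, against 6.95%. Of the 46 TTTGAA matches 34 lay between 40 bases before and 50 bases after the start, a window chosen after the positions were seen; 74.4% of the 43 promoters held one there, against 4.39% of all promoters. Both motifs were found in 69.2% of 26 promoters of called genes and in 70.6% of 17 promoters of genes not called, and TTTGAA in 76.9% and 88.2% of them. Of 55 promoters of other mitotic genes, listed apart from the 50, 50.9% held TTTGAA, 63.6% a CCAAT box and 34.5% both. Of the 40 promoters of DNA replication genes, 12.5% held TTTGAA and 57.5% a CCAAT box. These matches describe letters, not bound sites.

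**Figure D3:**
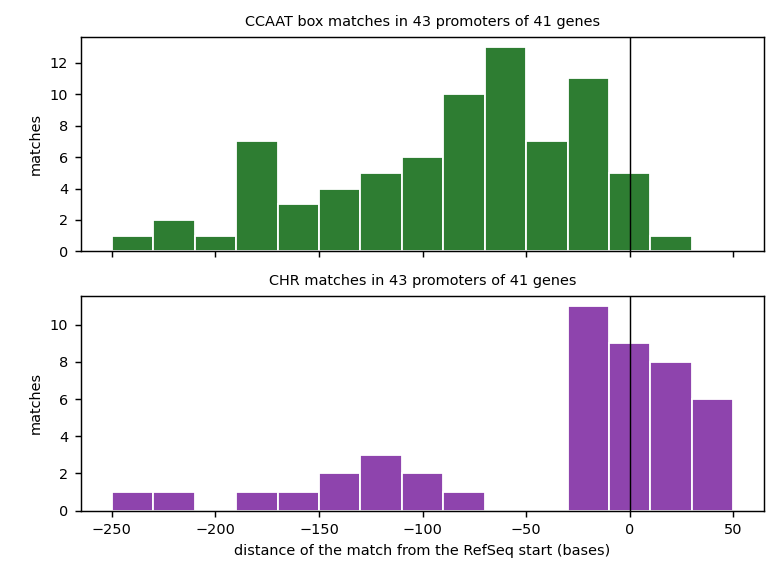
Number of CCAAT (upper panel) and TTTGAA (lower panel, CHR) matches by distance from the RefSeq start, in bins of 20 bases, over 43 promoters of 41 genes. CCAAT matches spread over the region before the start, and 34 of 46 TTTGAA matches lie from 40 bases before to 50 bases after it.

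The switch into mitosis is thrown by Cdk1 with its cyclins. Of 7 genes of mitotic entry 4 rose: Ccna2 (cyclin A, partner of Cdk2 and Cdk1), Ccnb1 (cyclin B), Foxm1 (the transcription factor of late cell cycle genes) and Cdca3 (an adaptor for degrading the Cdk1 inhibitor Wee1). Ccna2 had 44.9, 42.2 and 44.8 CPM in sgRNA7 hearts, against 36.5, 31.9 and 30.3 CPM in control hearts (log2 fold change 0.42, SE 0.07, adjusted p 0.00383). Cdca3 had 19.9, 21.8 and 21.2 CPM in sgRNA7 hearts, against 19.1, 13.2 and 13.4 CPM in control hearts (log2 fold change 0.47, SE 0.13, adjusted p 0.0465). In both genes the groups did not overlap, and control 1 was the nearest control. Ccna2 shares 11.2% of its exon bases with Exosc9 on the opposite strand, and the strand setting of the counts is not given. Ccnb1 had 24.9, 24.1 and 27.1 CPM in sgRNA7 hearts, against 21.7, 17.6 and 17.02 CPM in control hearts (log2 fold change 0.44, SE 0.09, adjusted p 0.0104). Foxm1 had 29.2, 32.3 and 30.9 CPM in sgRNA7 hearts, against 26.1, 19.1 and 22.9 CPM in control hearts (log2 fold change 0.44, SE 0.10, adjusted p 0.0147). Cdk1 itself did not pass, at 27.8, 29.9 and 31.8 CPM in sgRNA7 hearts, against 27.9, 22.1 and 21.4 CPM in control hearts (log2 fold change 0.33, SE 0.10, adjusted p 0.0538), with control 1 just above sgRNA7 heart 1. Ccnb2, a second cyclin B, had 17.2, 22.2 and 19.4 CPM in sgRNA7 hearts, against 19.1, 16.9 and 14.1 CPM in control hearts (log2 fold change 0.23, SE 0.12, adjusted p 0.27), so that the groups overlapped. Pseudogenes of Ccnb1, Ccnb2, Kif22 and Kif4 are named in GENCODE M21, and how the counting treated reads that match both copies is not stated. Mybl2 (B-Myb) had a log2 fold change of 0.31 and did not pass. Per kilobase of exon, Ccna2 was at 13.1 ± 0.458 in sgRNA7 hearts and 9.79 ± 0.96 in control hearts (CPM per kilobase, SD, n = 3). Ccnb2 was at 12.7 ± 1.61 in sgRNA7 hearts and 10.8 ± 1.60 in control hearts on the same scale. Ccna2, which passed, and Ccnb2, which did not, thus lay at similar levels.

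Of 7 genes of the spindle and its poles 3 rose, Plk1, Aspm and Nusap1. Plk1, the polo kinase that acts from entry to cytokinesis, had the largest fold change of the 50, at 16.5, 22.2 and 18.99 CPM in sgRNA7 hearts, against 14.9, 10.5 and 11.4 CPM in control hearts (log2 fold change 0.65, SE 0.14, adjusted p 0.0212). Aspm, which holds microtubule minus ends at the poles, had 18.04, 17.8 and 19.8 CPM in sgRNA7 hearts, against 14.1, 11.4 and 12.1 CPM in control hearts (log2 fold change 0.57, SE 0.09, adjusted p 0.00236). Plk1 was highest in sgRNA7 heart 2 and Aspm in sgRNA7 heart 3, and neither gene's groups overlapped. Nusap1, a microtubule bundling protein, had 19.1, 19.3 and 19.9 CPM in sgRNA7 hearts, against 16.5, 11.7 and 13 CPM in control hearts (log2 fold change 0.51, SE 0.11, adjusted p 0.011). Pbk, a mitotic kinase, had 13.1, 12.1 and 13.2 CPM in sgRNA7 hearts, against 13.04, 8.90 and 8.72 CPM in control hearts (log2 fold change 0.34, SE 0.14, adjusted p 0.163); control 1 lay within the sgRNA7 range. Aurora kinase A (Aurka, log2 fold change 0.31), its spindle activator Tpx2 (0.26) and the spindle protein Hmmr (0.34) did not pass, with adjusted p of 0.075, 0.115 and 0.119 in edgeR's test.

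Kinesins are the motors that build the spindle and move chromosomes along it, and 4 of 7 rose: the chromokinesins Kif4 and Kif22, the microtubule depolymerase Kif2c and the midzone motor Kif23. Kif2c had 10.9, 11.1 and 12.3 CPM in sgRNA7 hearts, against 8.01, 6.74 and 8.61 CPM in control hearts (log2 fold change 0.55, SE 0.11, adjusted p 0.00872). Kif22 had 17.01, 19.8 and 21.8 CPM in sgRNA7 hearts, against 16.1, 12.4 and 12.5 CPM in control hearts (log2 fold change 0.52, SE 0.12, adjusted p 0.0182). All sgRNA7 values of both genes were above all control values, and Kif2c was one of 4 genes for which control 3, not control 1, was the highest control. Kif4 and Kif23 had log2 fold changes of 0.36 and 0.40. Kif11, the motor that pushes the poles apart, had 33.9, 30.6 and 35.8 CPM in sgRNA7 hearts, against 31.6, 22.5 and 23.3 CPM in control hearts (log2 fold change 0.38, SE 0.13, adjusted p 0.0992), with control 1 above sgRNA7 heart 2. Kif15, which can stand in for Kif11, had 9.25, 9.05 and 10.2 CPM in sgRNA7 hearts, against 8.97, 6.95 and 7.99 CPM in control hearts (log2 fold change 0.25, SE 0.12, adjusted p 0.202), with the sgRNA7 values just above control 1. Kif20a, which carries the chromosomal passenger complex to the midzone, had a log2 fold change of 0.42 (adjusted p 0.0518 in edgeR's test). Of its exon bases 66.4% are shared with Cdc23 on the opposite strand. How the counting treated reads in shared bases is not stated, so these reads may come from either gene or be left out.

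Centromere and kinetochore genes were the role with the smallest share of calls, 2 of 7, and held the 1 gene of the 50 with a fold change below 0. The role's median log2 fold change was 0.345, close to the 0.344 of the spindle genes. Differences between roles were not tested. Cenpe, the kinesin of the kinetochore, had 15.6, 15.8 and 16.03 CPM in sgRNA7 hearts, against 12.7, 10.95 and 9.87 CPM in control hearts (log2 fold change 0.50, SE 0.10, adjusted p 0.00611). Spc24, of the Ndc80 complex that grips microtubules, had 11.3, 10.7 and 12.2 CPM in sgRNA7 hearts, against 8.55, 7.16 and 8.30 CPM in control hearts (log2 fold change 0.51, SE 0.11, adjusted p 0.00916). Both were apart between the groups, and the 3 sgRNA7 hearts differed little in Cenpe. Cenpf, a large protein of the outer kinetochore, had 34.8, 33.98 and 35.3 CPM in sgRNA7 hearts, against 40.97, 36.4 and 31.5 CPM in control hearts (log2 fold change -0.06, SE 0.08, adjusted p 0.716). Cenpa, the histone H3 variant that marks centromeres, had 55.9, 58.02 and 61.1 CPM in sgRNA7 hearts, against 61.2, 53.5 and 51.7 CPM in control hearts (log2 fold change 0.07, SE 0.07, adjusted p 0.575). Control 1 was the highest of all 6 libraries in both, and the intervals of ±2 SE around their fold changes, -0.23 to 0.11 for Cenpf and -0.07 to 0.21 for Cenpa, did not reach the median of the 50 genes. Without control 1 the fold change of Cenpf was 0.03 on the log2 scale. Cenpa was also the most abundant of the 50 per kilobase of exon, at 36.1 ± 1.63 in sgRNA7 hearts and 34.3 ± 3.14 in control hearts (CPM per kilobase, SD, n = 3). The medians over the 50 were 6.94 in sgRNA7 hearts and 5.26 in control hearts.

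The Ndc80 complex has 4 subunits, whose levels are compared per kilobase of exon. In CPM per kilobase, Ndc80 was at 4.69 ± 0.196 in sgRNA7 hearts and 3.70 ± 0.783 in control hearts (SD, n = 3). Nuf2 was at 7.34 ± 0.924 in sgRNA7 hearts and 5.88 ± 1.13 in control hearts, and Spc24 at 7.26 ± 0.459 in sgRNA7 hearts and 5.10 ± 0.472 in control hearts. Spc25 was at 8.26 ± 0.436 in sgRNA7 hearts and 6.17 ± 1.37 in control hearts. Their log2 fold changes were 0.34, 0.32, 0.51 and 0.43, and Spc24 was the 1 subunit called by edgeR after the filter on low counts, while all 4 were called with no filter. The SE of these values were 0.14, 0.13, 0.11 and 0.13, and the difference between subunits was not tested.

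In the spindle checkpoint and the step into anaphase, 5 of 6 genes rose. Bub1b, the checkpoint protein BubR1, had 24.5, 26.7 and 25.3 CPM in sgRNA7 hearts, against 21.5, 18.1 and 18.5 CPM in control hearts (log2 fold change 0.40, SE 0.08, adjusted p 0.00812). Ttk, the checkpoint kinase Mps1, had 6.95, 8.31 and 7.99 CPM in sgRNA7 hearts, against 5.14, 4.27 and 5.43 CPM in control hearts (log2 fold change 0.64, SE 0.14, adjusted p 0.0101). In Ttk every sgRNA7 heart was above every control, and control 3 was the highest control. The kinase Bub1 had 12.7, 13.7 and 14.1 CPM in sgRNA7 hearts, against 10.05, 10.4 and 9.34 CPM in control hearts (log2 fold change 0.44, SE 0.09, adjusted p 0.00933), with the controls close together. Cdc20, the activator of the anaphase-promoting complex (APC/C), and Espl1, the protease separase that cuts cohesin, had log2 fold changes of 0.41 and 0.31 (adjusted p 0.0302 and 0.0486 in edgeR's test). Ube2c, the ubiquitin-conjugating enzyme of the APC/C, had 28.7, 29.9 and 29.7 CPM in sgRNA7 hearts, against 26.7, 17.9 and 18.5 CPM in control hearts (log2 fold change 0.49, SE 0.14, adjusted p 0.0684). Its groups did not overlap, but its controls ranged from 17.9 CPM in control 2 to 26.7 CPM in control 1. Per kilobase it was the second most abundant of the 50, at 31.6 ± 0.677 in sgRNA7 hearts and 22.6 ± 5.29 in control hearts (CPM per kilobase, SD, n = 3).

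The chromosomal passenger complex corrects faulty attachments and later steers cytokinesis, and 2 of its 4 genes rose. Birc5 (survivin) had 15.3, 17.9 and 19.99 CPM in sgRNA7 hearts, against 13.3, 11.5 and 11.2 CPM in control hearts (log2 fold change 0.56, SE 0.11, adjusted p 0.00618). Aurkb, its kinase, had 13.6, 16.1 and 14.6 CPM in sgRNA7 hearts, against 11.2, 9.06 and 11.4 CPM in control hearts (log2 fold change 0.48, SE 0.11, adjusted p 0.0125). Birc5 was highest in sgRNA7 heart 3 and Aurkb in sgRNA7 heart 2, with no overlap between groups. Cdca8 (borealin) had 16.6, 19.6 and 18.5 CPM in sgRNA7 hearts, against 16.7, 10.95 and 13.1 CPM in control hearts (log2 fold change 0.43, SE 0.14, adjusted p 0.0773). Incenp, the scaffold, had 25.5, 31.2 and 30.7 CPM in sgRNA7 hearts, against 26.7, 21.9 and 22.4 CPM in control hearts (log2 fold change 0.30, SE 0.10, adjusted p 0.0744). In both, control 1 lay just above sgRNA7 heart 1. Aurkb kept its call in 14 of 15 alternative settings, the most of the 28 called genes, and was the 1 gene of the 50 called with Myl7 as a covariate.

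Of 8 genes of chromosome structure 4 rose (Top2a, Mki67, Ncapd2 and Ncaph). Top2a, the topoisomerase that untangles sister DNA, had 81.3, 80.5 and 86.6 CPM in sgRNA7 hearts, against 69.3, 57.8 and 56.4 CPM in control hearts (log2 fold change 0.44, SE 0.08, adjusted p 0.0035). Mki67, the Ki-67 protein that coats mitotic chromosomes and serves as a marker of cycling cells, had 99.3, 98.2 and 104 CPM in sgRNA7 hearts, against 87.7, 72 and 71.6 CPM in control hearts (log2 fold change 0.38, SE 0.07, adjusted p 0.00682). Both were apart between groups, with control 1 the nearest control. In condensin I, which compacts chromosomes, Ncaph had 19.4, 20.2 and 20.5 CPM in sgRNA7 hearts, against 15.2, 14.2 and 14.5 CPM in control hearts (log2 fold change 0.45, SE 0.08, adjusted p 0.00269). Ncapd2 had 92.7, 100.4 and 101 CPM in sgRNA7 hearts, against 90.97, 79.6 and 82.95 CPM in control hearts (log2 fold change 0.21, SE 0.06, adjusted p 0.0459). The fold change of Ncapd2 lay below the median of the 50 by more than 2 SE, as did those of Smc4 (0.20, SE 0.07) and Smc2 (0.25, SE 0.08), the condensin core, neither of which passed. The third non-SMC subunit, Ncapg, had a log2 fold change of 0.43 and did not pass (adjusted p 0.0873 in edgeR's test); it shares 19.96% of its exon bases with Lcorl on the opposite strand. Cdca5 (sororin), which protects cohesion between sisters, had 5.24, 5.09 and 5.58 CPM in sgRNA7 hearts, against 4.90, 3.42 and 3.34 CPM in control hearts (log2 fold change 0.45, SE 0.17, adjusted p 0.108). It had the fewest reads of the 50, and control 1 lay close below the sgRNA7 hearts.

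The condensin subunits were far from equal per kilobase. In CPM per kilobase, Ncapd2 was at 19.1 ± 0.915 in sgRNA7 hearts and 16.5 ± 1.14 in control hearts (SD, n = 3). Smc4 was at 16.8 ± 1.20 in sgRNA7 hearts and 14.7 ± 1.19 in control hearts. The other subunits lay lower, with Ncaph at 7.43 ± 0.209 in sgRNA7 hearts and 5.43 ± 0.188 in control hearts. Smc2 was at 4.19 ± 0.417 in sgRNA7 hearts and 3.52 ± 0.0707 in control hearts, and Ncapg at 2.505 ± 0.357 in sgRNA7 hearts and 1.87 ± 0.364 in control hearts. Differences in fold change between the subunits were not tested.

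All 4 genes of the midzone and cytokinesis rose. Anln (anillin), the scaffold of the contractile ring, had the smallest p of the 50, at 35.9, 32.5 and 33.8 CPM in sgRNA7 hearts, against 27.1, 23.7 and 22.9 CPM in control hearts (log2 fold change 0.48, SE 0.08, adjusted p 0.00219). Prc1, which bundles midzone microtubules, had 48.4, 47.3 and 53.2 CPM in sgRNA7 hearts, against 40.7, 32.97 and 34.04 CPM in control hearts (log2 fold change 0.47, SE 0.08, adjusted p 0.00371). Ect2, the exchange factor that activates RhoA at the cleavage furrow, had 12.3, 10.9 and 14.96 CPM in sgRNA7 hearts, against 9.39, 8.69 and 7.41 CPM in control hearts (log2 fold change 0.58, SE 0.13, adjusted p 0.0126). All 3 genes had every sgRNA7 heart above every control, and Ect2 was highest in sgRNA7 heart 3. Racgap1, the partner of Kif23 in centralspindlin and of Ect2, had 38.8, 44.6 and 42.7 CPM in sgRNA7 hearts, against 36.4, 30.4 and 29.1 CPM in control hearts (log2 fold change 0.40, SE 0.09, adjusted p 0.0124). Racgap1 was at 13.7 ± 0.965 in sgRNA7 hearts and 10.4 ± 1.26 in control hearts (CPM per kilobase, SD, n = 3). Kif23 was at 6.72 ± 0.395 in sgRNA7 hearts and 5.09 ± 0.754 in control hearts on that scale, and their log2 fold changes, 0.40 and 0.40, were nearly equal.

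**Figure D4:**
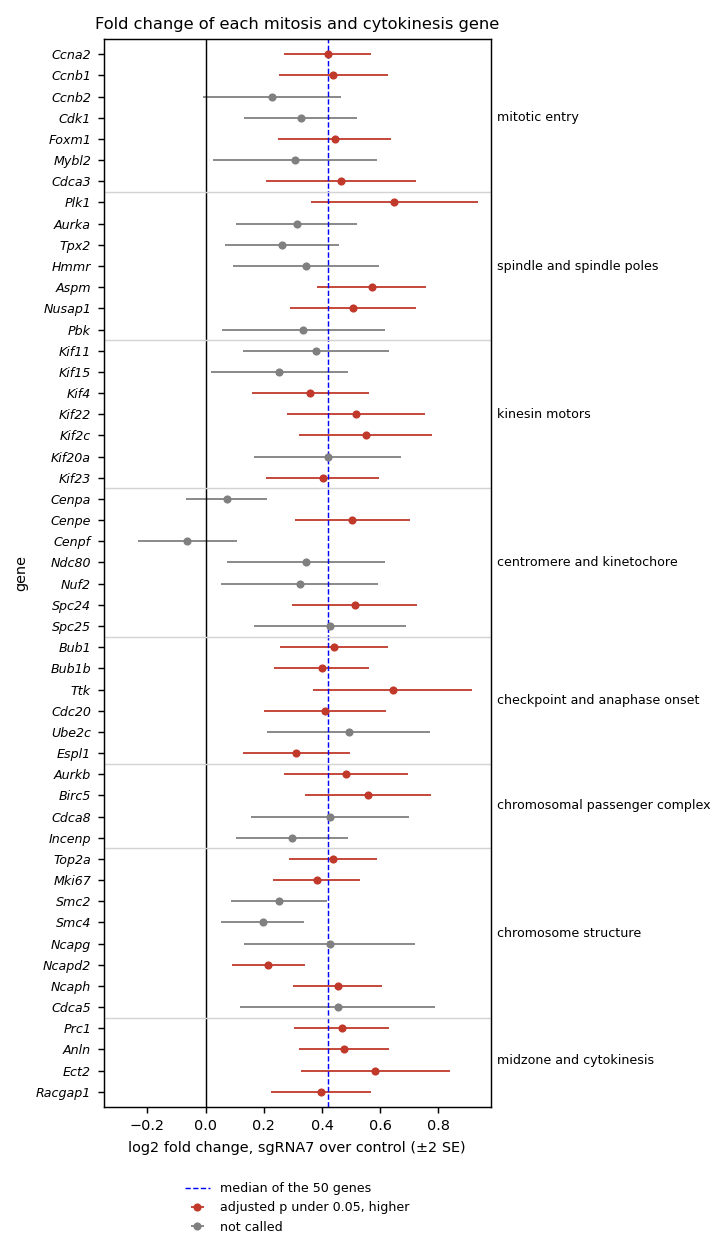
Log2 fold change of each gene, sgRNA7 over control, with bars of ±2 SE, red where called higher at an adjusted p under 0.05 and grey where not called; the dashed line is the median of the 50, 0.42. The intervals of Cenpa, Cenpf, Smc2, Smc4 and Ncapd2 lie wholly below the dashed line, and those of the other 45 genes include it.

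Other genes of division, listed by name apart from the 50 and also with earlier results known, were higher too, but not in every stage. Of 57 other mitotic genes 23 rose and 0 fell, with a median log2 fold change of 0.37, and of 41 DNA replication genes 18 rose and 0 fell, with a median of 0.34 (4.93% of all tested genes rose). DESeq2 called 14 and 12 of them higher. Ccnf, the cyclin F of a ubiquitin ligase, had 10.7, 11.5 and 12.3 CPM in sgRNA7 hearts, against 7.89, 6.79 and 5.48 CPM in control hearts (log2 fold change 0.77, SE 0.13, adjusted p 0.00254). Cdca2, which recruits phosphatase to chromosomes, had 13.8, 15.3 and 13.96 CPM in sgRNA7 hearts, against 9.99, 7.32 and 8.77 CPM in control hearts (log2 fold change 0.73, SE 0.11, adjusted p 0.00165). Both lay apart between groups. Among replication genes, the helicase subunit Mcm7 had 47.1, 47.9 and 45.3 CPM in sgRNA7 hearts, against 37.8, 36.1 and 36.9 CPM in control hearts (log2 fold change 0.34, SE 0.06, adjusted p 0.0035). Uhrf1, which helps to copy DNA methylation to new strands, had 35.3, 33.02 and 33.7 CPM in sgRNA7 hearts, against 25.1, 19.4 and 24.9 CPM in control hearts (log2 fold change 0.56, SE 0.09, adjusted p 0.00246). These calls rested on single libraries too. Without control 3, 2 of the other mitotic and 4 of the replication genes rose. Without sgRNA7 heart 3 the counts were 6 and 9. Without control 2, 6 of the other mitotic genes rose and 1 fell, and 7 of the replication genes rose. When Myl7 entered the model, 1 and 2 rose. Over all tested genes 188 rose without control 3, 415 without sgRNA7 heart 3 and 44 with Myl7. Without control 2, 661 of all tested genes rose and 592 fell, against 733 and 705 with all libraries.

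Of 17 E2F, RB and DREAM regulators 4 rose and 0 fell, with a median log2 fold change of 0.12 (DESeq2 called 2 higher). Of all tested genes 4.93% rose in edgeR's test, and a single call in a list of few genes is read as nothing about the list. E2f1, an activator of the genes of S phase, had 18.9, 17.3 and 18.4 CPM in sgRNA7 hearts, against 14.2, 12.96 and 13.3 CPM in control hearts (log2 fold change 0.44, SE 0.08, adjusted p 0.00489). E2f8, an atypical E2F that represses them, had 9.38, 10.3 and 10.9 CPM in sgRNA7 hearts, against 7.36, 5.95 and 6.68 CPM in control hearts (log2 fold change 0.61, SE 0.12, adjusted p 0.00561). In both genes the groups did not overlap. Of 9 G1 cyclins and their kinases Ccnd2 (cyclin D2) was the 1 that rose, at 268, 227 and 247 CPM in sgRNA7 hearts, against 201, 209.7 and 215 CPM in control hearts (log2 fold change 0.25, SE 0.06, adjusted p 0.0261). The call was lost when any 1 library other than sgRNA7 heart 2 was left out. Its kinase Cdk4 had 92.5, 101 and 90.9 CPM in sgRNA7 hearts, against 86.96, 85.95 and 84.8 CPM in control hearts (log2 fold change 0.14, SE 0.06, adjusted p 0.142). Of 5 tested inhibitors of these kinases Cdkn1a (p21) rose, at 47.9, 53.4 and 49.5 CPM in sgRNA7 hearts, against 36.2, 32.5 and 37.5 CPM in control hearts (log2 fold change 0.50, SE 0.07, adjusted p 0.00089). Cdkn2c had a log2 fold change of 0.19 (adjusted p 0.128 in edgeR's test). Cdkn2a and Cdkn2b were below 0.5 CPM in every library and were not tested. p21 stops the cycle by inhibiting these kinases, and its call stood beside those of the mitotic genes.

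Cohesin and the APC/C also serve cells outside mitosis, and their lists were not tested against the mitotic ones. Of 14 genes of the APC/C core and its regulators 0 rose and 1 fell, with a median log2 fold change of 0.02, where 9.66% of all tested genes were called in either direction. The gene that fell was Anapc13, at 33.6, 36.8 and 32.3 CPM in sgRNA7 hearts, against 45.04, 37.4 and 40.7 CPM in control hearts (log2 fold change -0.26, SE 0.08, adjusted p 0.0496), a call also lost with upper-quartile scaling and with DESeq2. Fbxo5 (Emi1), an APC/C inhibitor, had a log2 fold change of 0.20 (adjusted p 0.247 in edgeR's test). Of 12 cohesin genes, which hold sister chromatids together, 0 were called by edgeR (DESeq2 called 0 and limma voom 1). In edgeR's test 1, Esco2, had an unadjusted p under 0.05, as 24.4% of all tested genes did. Esco2, the acetyltransferase that locks cohesin on DNA, had 10.1, 10.4 and 11 CPM in sgRNA7 hearts, against 9.75, 5.79 and 6.94 CPM in control hearts (log2 fold change 0.50, SE 0.16, adjusted p 0.0713). Wapl, which releases cohesin, had 59.6, 50.9 and 55.6 CPM in sgRNA7 hearts, against 61.5, 57.99 and 62.5 CPM in control hearts (log2 fold change -0.13, SE 0.07, adjusted p 0.248).

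**Figure D5:**
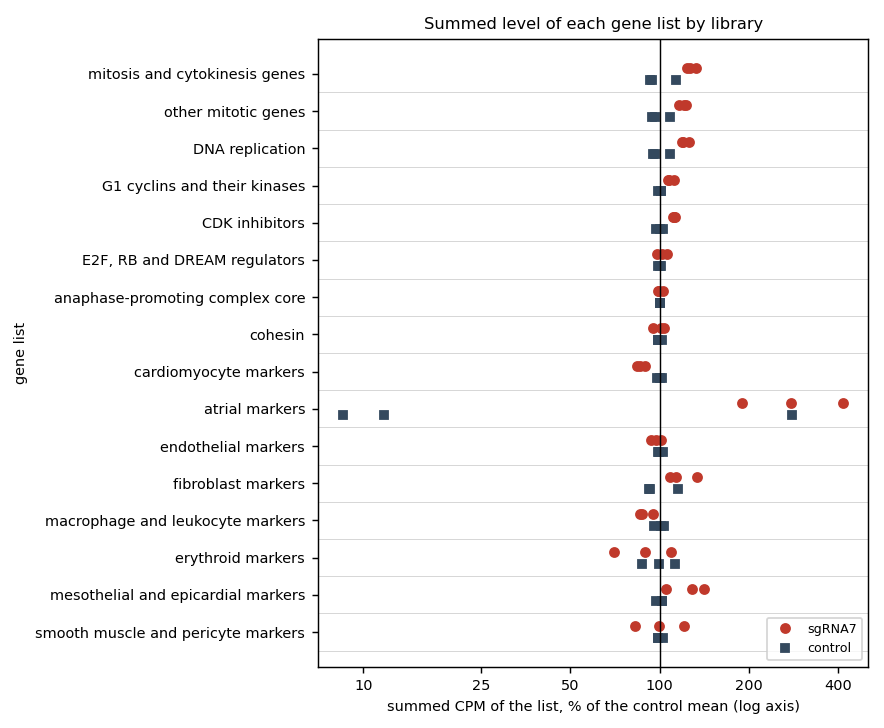
Summed CPM of each gene list in each library (sgRNA7 red circles, control dark squares, 3 libraries each), in percent of the mean of the 3 control libraries on a log axis. The sgRNA7 sums of the mitosis and cytokinesis genes, the other mitotic genes, the DNA replication genes, the G1 cyclins and kinases, the CDK inhibitors and the mesothelial and epicardial markers lie above all control sums, those of the heart muscle and the macrophage and leukocyte markers lie below, and the atrial markers of controls 1 and 3 lie far to the left of the other 4 libraries.

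Among markers of the cell types of the heart, those of heart muscle and of the mesothelium and epicardium held most of the calls, and the part of any of them in the mitotic values was not tested. Of 12 heart muscle markers 0 rose and 5 fell, where 4.93% of all tested genes rose and 4.74% fell. The heart muscle markers summed to 72620 to 77100 CPM in sgRNA7 hearts and 85190 to 88250 CPM in control hearts. Myh6 had 33629.6, 32009 and 31031 CPM in sgRNA7 hearts, against 36066, 37922 and 38098 CPM in control hearts (log2 fold change -0.21, SE 0.04, adjusted p 0.00671). The sum of the 12 was thus lower in every sgRNA7 heart than in every control. Of 10 mesothelial and epicardial markers, the cells on the heart's surface, 7 rose and 1 fell, at 105 to 141 CPM in sgRNA7 hearts and 96.5 to 101 CPM in control hearts. Msln (mesothelin), one of the 7 and chosen after its values were seen, had 11.3, 11.8 and 6.53 CPM in sgRNA7 hearts, against 2.63, 2.79 and 2.45 CPM in control hearts (log2 fold change 1.91, SE 0.22, adjusted p 0.00089). Wt1, the 1 that fell, had 14.1, 17.5 and 14.02 CPM in sgRNA7 hearts, against 20.8, 17.9 and 21.1 CPM in control hearts. Its log2 fold change was -0.40 (SE 0.10, adjusted p 0.0259 in edgeR's test). Aldh1a2, an enzyme of retinoic acid synthesis, had 56.8, 54.96 and 49.4 CPM in sgRNA7 hearts, against 61.7, 62.3 and 53.6 CPM in control hearts (log2 fold change -0.14, SE 0.07, adjusted p 0.266). Of 7 atrial markers 0 were called by edgeR (DESeq2 called 1 and limma voom 6). In edgeR's test 1, Upk3b, had an unadjusted p under 0.05, as 24.4% of all tested genes did. The sum of the 7 was 1310 to 2886 CPM in sgRNA7 hearts, against 81.4, 1938 and 59.1 CPM in control hearts. Nppa, the atrial natriuretic peptide, had 850.4, 516 and 1103 CPM in sgRNA7 hearts, against 24.8, 1105 and 15.4 CPM in control hearts (log2 fold change 1.11, SE 1.81, adjusted p 0.783). Upk3b, a uroplakin that mesothelial cells also make, had 7.38, 10.97 and 4.13 CPM in sgRNA7 hearts, against 1.73, 3.63 and 1.77 CPM in control hearts (log2 fold change 1.64, SE 0.49, adjusted p 0.12).

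Of 12 fibroblast markers 1 rose, where 4.93% of all tested genes rose. Their sums were 8852 to 10950 CPM in sgRNA7 hearts and 7505 to 9443 CPM in control hearts, which overlap. The collagen Col3a1 had 3525, 4024 and 3694 CPM in sgRNA7 hearts, against 2977, 3928 and 3075 CPM in control hearts (log2 fold change 0.17, SE 0.12, adjusted p 0.433). No endothelial (12), macrophage and leukocyte (13), erythroid (8) or smooth muscle and pericyte marker (9) was called by edgeR. Of these markers 8 had an unadjusted p under 0.05 in that test, against 24.4% of all tested genes. DESeq2 called 4 and limma voom 2 of the smooth muscle and pericyte markers, and neither called any of the other 3 lists. Endothelial markers summed to 2645 to 2860.2 CPM in sgRNA7 hearts and 2784 to 2899 CPM in control hearts. Macrophage and leukocyte markers summed to 136 to 150 CPM in sgRNA7 hearts and 151 to 163 CPM in control hearts, and the T cell gene Cd3e was at 0 in sgRNA7 hearts 2 and 3. The macrophage receptor Csf1r had a log2 fold change of -0.24, the endothelial and adipocyte lipid carrier Fabp4 -0.02, the pericyte gene Rgs5 -0.16 and the red cell globin Hbb-bs -0.17, none of them called by edgeR with all 6 libraries and the filter. Rgs5 was called lower by DESeq2 and limma voom and without sgRNA7 heart 2, and Csf1r with no filter and with Myl7 as a covariate. The log2 fold changes of Fabp4, Col3a1, Hbb-bs and Nppa changed sign in at least 1 alternative setting.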

How the data were processed

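RNA from mouse hearts was sequenced in 3 sgRNA7 and 3 control libraries. The authors deposited a table of read counts per gene. Build mm10, STAR, featureCounts, cutadapt and FastQC are named per the submitters' processing notes, with no versions, settings or strandedness stated. The table holds 2 columns per library with identical counts (0 genes differ), which were counted once. The 50 genes and all lists were chosen by name with earlier results of these data known.

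Counts were tested with edgeR 4.0.16 (R 4.3.3, limma 3.58.1): filterByExpr kept 14879 of 35976 genes, TMM factors ran from 0.971 to 1.039, and a quasi-likelihood fit compared sgRNA7 with control hearts, with Benjamini-Hochberg adjustment over all genes tested and calls at an adjusted p under 0.05. SE is the size of the log2 fold change over the square root of F. Scripts were tested on simulated data. Per-library values were given, in each role, for the gene with the highest level per kilobase, the smallest p, the largest p and the largest absolute log2 fold change; of each other cell cycle list the 2 with the smallest p were named, with Camk2d, and of each cell type list the 1 with the highest level. Other genes with values were chosen after these were seen. Alternatives were other scalings and filters, DESeq2 1.42.0, limma voom, glmTreat, a replicate block, Myl7 as a covariate, and leaving out libraries. Of the listed symbols 6 are not in the table: Ahsp was not matched, and Knl1, Sgo1, Sgo2a, Pimreg and Haspin were matched by the older symbols Casc5, Sgol1, Sgol2a, Fam64a and Gsg2, listed beside them. Total counts of 17062412 to 23097998 put 64 reads or more behind each value of the 50 genes. Promoters are from RefSeq (GRCm38.p6). Shared exon bases were computed from the exon coordinates deposited with the counts, and pseudogene names are from GENCODE M21.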

Additional observations from a re-analysis of the deposited data

How the results depend on the processing

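The median log2 fold change of the 50 genes stayed above 0 in every alternative that gives one (0.36 to 0.53). The number of them called did not: against 28, it was 44 with no filter on low counts, 1 (Aurkb) with Myl7 as a covariate, 3 (Foxm1, Nusap1 and Ube2c) without controls 1 and 3 together, 0 for a change above 1.5-fold, and 10 to 40 with 1 library left out. Each of the 28 calls was lost in at least 1 of 15 alternatives (the 1.5-fold test apart), and the genes were called in 7 (Cdca3, Espl1) to 14 (Aurkb) of them. Over all tested genes, 1438 were called, 2239 with no filter, 2285 with limma voom, 126 with Myl7, 82 without controls 1 and 3, 43 above 1.5-fold, and 386 to 1661 with 1 library left out. Upper-quartile scaling gave 849 higher and 531 lower calls, against 733 and 705. Camk2d was past the threshold except without controls 1 and 3 (log2 fold change -0.62, adjusted p 0.0964 in edgeR's test). The cause of these shifts was not tested. With 1 control left, that library is assumed to vary like the sgRNA7 group.

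These log2 fold changes changed sign: Fabp4 was 0.00468 with upper-quartile scaling, 0.0195 with Myl7 and 0.0655 without controls 1 and 3, and -0.0662 to 0.0464 with 1 library left out; Nppa was -0.69 with Myl7 and -0.43 without controls 1 and 3; Col3a1 was -0.0261 and -0.0730, and Hbb-bs 0.0864 and 0.0241, under the same 2 settings. Cenpf was -0.157 to 0.0332 with 1 library left out, the highest without control 1. Correlations of same-numbered libraries were 0.02, -0.0957 and -0.0756. They use deviations from group means of 3 libraries each and cannot exclude a pairing of the samples. With a replicate block, 24 of the 50 genes and 1077 of all genes were called. The 50 genes had 64 to 2329 reads per library, and the size of change detectable at a given depth was not measured.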

Other observations

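Igf2 and H19, imprinted growth genes that fall in the mouse heart after birth, were chosen after their values were seen. Igf2 was at 605 to 702 CPM in sgRNA7 hearts and 723 to 798 CPM in control hearts, and H19 at 357 to 461 CPM in sgRNA7 hearts and 420 to 479 CPM in control hearts. The labels give no age for either group, and the relation of these levels to the mitotic genes was not tested.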
